A study of Mus musculus with 12 samples.

Results

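Fast-processed transcripts are here transcripts with abundant exons in newly made RNA and few introns in the total RNA pool. They were chosen by measured values, as transcripts with exon and intron values in all 12 libraries, a mean exon value in total RNA of at least 100, and a mean exon value in labeled RNA of at least 40 times the mean intron value in total RNA. Of 121429 transcripts in the table, 91702 had both exons and introns, 46195 of these had values in every library for both, 14826 of these reached the exon minimum, and 1493 (10.1% of the 14826) reached the ratio of 40. The other 13333 transcripts that met every condition but the ratio are called other candidates. Because these values chose the transcripts, the ratio, the exon and intron levels and the contrast of labeled with total RNA are given as a description, with no test.

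The libraries came from DTCM23/49 XY mouse embryonic stem cells (mESCs), grown on gelatin with serum and LIF, to which 200 µM 4sU was added for 15, 30 or 60 min. 4sU replaces uridine in part of the RNA made in its presence, and its thiol group lets new RNA be biotinylated and captured on streptavidin. At each time, captured (labeled) and total RNA were sequenced from 2 biological replicates, which were passaged separately from a divided culture, giving 6 labeled and 6 total RNA libraries. All libraries, including those of total RNA, are from cells that received 4sU, and both replicates go back to the same culture, so the spread between them is that of parallel cultures.

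Introns are removed by the spliceosome, which reads a short sequence at the 5′ splice site, a branch point and a pyrimidine tract followed by AG at the 3′ splice site. Most splicing takes place while the RNA is still being made. In a total RNA pool at equilibrium, the amount of intronic RNA depends on how fast it is made and how long it lasts before splicing and decay, whereas the amount of exonic RNA also depends on how long the mature transcript lasts. An exon to intron ratio is therefore no rate of splicing by itself, and the word fast is used here for the ratio alone.

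To show what the introns of such transcripts look like, 8 whole introns are printed, each the shortest GT-AG intron of 60 to 150 bases between coding exons in the highest-ratio protein-coding transcript of its gene list that had one. They are read 5′ to 3′ on the transcribed strand from NCBIM37 (mm9), the build of the GENCODE M1 annotation, and capitals mark the first 6 bases, which pair with U1 snRNA, and the last 3. These introns were chosen for their length and their genes, so they are examples and not a sample of the introns.
Rps27, chr3:90016967-90017114, minus strand: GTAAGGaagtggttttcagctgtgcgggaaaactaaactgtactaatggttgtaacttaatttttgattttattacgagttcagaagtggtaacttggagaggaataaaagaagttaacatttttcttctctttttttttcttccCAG
Eef1a1, chr9:78327582-78327658, minus strand: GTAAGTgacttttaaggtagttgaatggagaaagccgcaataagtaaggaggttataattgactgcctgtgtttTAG
Hsp90aa1, chr12:111933629-111933728, minus strand: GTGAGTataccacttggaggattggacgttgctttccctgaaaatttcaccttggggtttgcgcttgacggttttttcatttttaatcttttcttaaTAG
Gapdh, chr6:125112412-125112495, minus strand: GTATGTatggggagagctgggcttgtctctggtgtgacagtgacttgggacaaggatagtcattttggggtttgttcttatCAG
Tuba1a, chr15:98781768-98781899, minus strand: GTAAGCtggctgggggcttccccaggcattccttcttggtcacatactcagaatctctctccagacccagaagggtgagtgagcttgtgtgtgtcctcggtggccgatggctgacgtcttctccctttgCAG
Ncl, chr1:88253033-88253130, minus strand: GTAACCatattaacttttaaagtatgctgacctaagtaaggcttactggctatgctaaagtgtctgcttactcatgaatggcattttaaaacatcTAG
Dppa5a, chr9:78215711-78215791, minus strand: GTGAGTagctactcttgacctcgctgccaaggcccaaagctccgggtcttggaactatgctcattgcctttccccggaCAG
Atf4, chr15:80086952-80087063, plus strand: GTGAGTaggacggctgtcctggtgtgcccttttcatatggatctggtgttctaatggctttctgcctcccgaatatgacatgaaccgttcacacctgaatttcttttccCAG

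These 8 introns are between 77 and 148 bases long, and their GC content ranges from 33.1% in Rps27 to 56.8% in Tuba1a and Dppa5a. The first 6 bases are GTGAGT in Hsp90aa1, Dppa5a and Atf4 and GTAAGT in Eef1a1, and they differ in the other 4. For contrast, the last 23 bases of the longest intron are given for 4 fast-processed transcripts with long or many introns, with the last 3 bases in capitals.
Mid1, chrX:166238725-166403994, plus strand: ttctctctttctcttttaaaCAG
Tpr, chr1:152245804-152249384, plus strand: cttggtgtttcttgatatgaCAG
Top2a, chr11:98880256-98883024, minus strand: tgcaactttgtatcttttctCAG
Prpf8, chr11:75310582-75313300, plus strand: ttactcctttctgctgacttTAG
The coordinates are those of the whole introns, which are 165270, 3581, 2769 and 2719 bases long. All 4 end in CAG or TAG, as do the short introns.

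Across the introns annotated in M1, 4592 belong to at least 1 fast-processed transcript and 48115 only to other candidates. Of these, 9 and 44 are shorter than 60 bases and were left out of the splice-site counts. The remaining introns of fast-processed transcripts had a median length of 733 bases (quartiles 242 and 1806), against 1503 bases (604 and 3328) in other candidates, and 12.8% against 6.05% were at most 120 bases long. Both sets were GT-AG in 98.4% of introns, and GC-AG in 0.895% and 0.884%. The 5′ splice site began with GTGAGT in 15.7% of introns of fast-processed transcripts and 12.5% of the others, and with GTAAGT in 14.1% and 16%. The median share of pyrimidines in the 20 bases before the last 3 was 75% in both sets. The median GC content was 44.9% (quartiles 39.9% and 51.2%) in fast-processed transcripts and 41.9% (38.4% and 46.1%) in the others. Within length classes it was 50% and 47.8% up to 120 bases, 49.6% and 46.4% up to 300, 45% and 42.6% up to 1000, and 43% and 41.5% in longer introns. GTGAGT began 19.1% and 13.4% of introns up to 120 bases, 16.4% and 13.9% up to 300, 14.8% and 12.4% up to 1000, and 15.1% and 12.2% of longer ones. In the same classes, GTAAGT began 12.9% and 13.9%, 12.3% and 12.1%, 13.4% and 13.8%, and 15.7% and 17.6%. For GTAAGT the sets were thus close up to 1000 bases. The 2 sets differed in intron length, GC content and the share of GTGAGT, and were alike in the shares of GT-AG introns and of pyrimidines. Introns of a gene share a locus and overlapping isoforms share introns, so these shares are given with no test.

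Fast-processed transcripts had high exon values and low intron values. In total RNA their exons had a median value of 1114 and in labeled RNA of 995, on a scale on which all values of a library sum to between 19988830 and 19992902, against 216 and 188 in other candidates. Their median intron value in total RNA was 13, against 20. The median ratio was 65.8 (quartiles 48.7 and 107, highest 2136), against 10.3 in other candidates. Of the 1483 candidates in the top decile of total exon value, from 1090 upward, 756 (51.0%) were fast-processed, and they made up 50.6% of all fast-processed transcripts. In this decile the median total exon value was 2678 in fast-processed transcripts and 1679 in the others, and the median total intron value 25.7 and 84.9. In the lowest decile, from 100 to 116, 13 of 1483 (0.877%) were fast-processed. Values of 1 or less are missing, and a transcript with a missing intron value in any library was no candidate. Transcripts with the lowest intron values could therefore not be counted, and the part of this minimum in the low share was not tested. At the threshold, Aldoa (ENSMUST00000139657), Ap2m1 and Psma2 lay just inside, each with a ratio that rounds to 40, and Prpf38b (40 when rounded), Tars (39.9) and ENSMUST00000176609 (39.9) lay just outside.

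**Figure D1:**
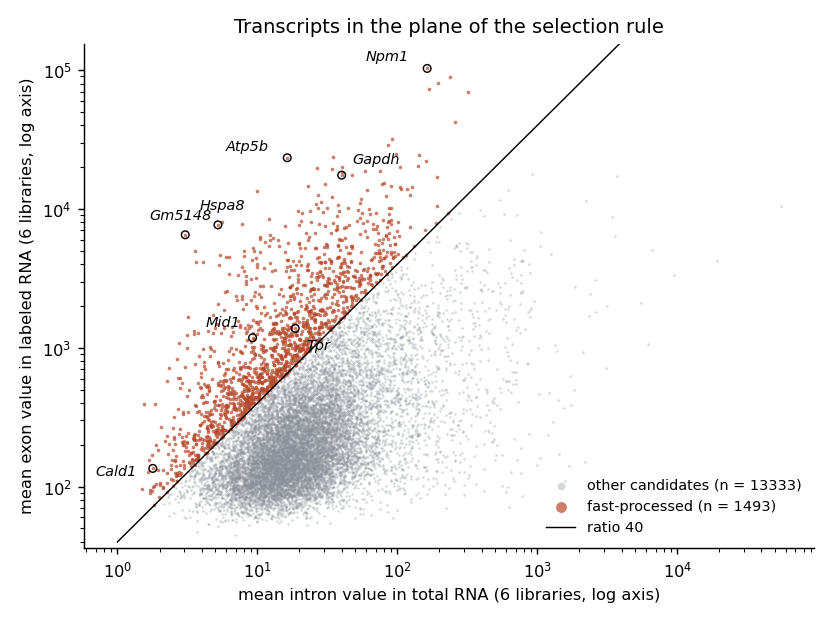
Each point is 1 of 14826 candidate transcripts, placed by its mean intron value in total RNA (horizontal, log axis) and its mean exon value in labeled RNA (vertical, log axis), with the line at a ratio of 40. The 1493 fast-processed transcripts (red) lie above the line by construction, and Npm1 stands at the upper end with an exon value of 102841 and an intron value of 163.

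The ratio was first read in each pair of labeled and total library. Of the 1493 transcripts, 854 reached 40 in all 6 pairs, 249 in 5, 208 in 4, 146 in 3, 34 in 2 and 2 in 1. The number that reached 40 was lowest at 60 min in replicate 1 (1209) and highest at 15 min in replicate 2 (1412), where 7.63% of other candidates also did, against 0.870% to 2.65% in the other pairs. The 15 min pair of replicate 2 therefore stood apart from the rest, with a median ratio of 93.8 over the fast-processed transcripts against 62.6 to 73.3 elsewhere. When the rule was applied to the libraries of replicate 1 alone, it chose 1357 transcripts, of which 1283 (94.5%) reached 40 in replicate 2, where 11.2% of all candidates did. When it was applied to replicate 2 alone, it chose 1660, of which 1281 (77.2%) reached 40 in replicate 1, where 9.14% of candidates did. Both choices were made among the 46195 transcripts with values in all 12 libraries, so each also used the libraries in which it was read. These shares describe the ratio that chose the transcripts and are no test of it.

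Introns held more of the labeled RNA of replicate 1 at 15 and 60 min (14.8% and 13.9% of all values) than of the other labeled libraries (6.99% to 10.8%). In the total RNA libraries they held 6.53% to 7.41%. Labeled RNA of replicate 2 at 15 and 60 min, at 7.24% and 6.99%, lay within that range, so its intron share was no higher than in total RNA. The cause was not tested. Leaving out the labeled libraries of replicate 1 at 15 and 60 min gave 1531 fast-processed transcripts. The median intron value of the 1493 transcripts ranged from 14.8 to 39.0 over the 6 labeled libraries and from 10.4 to 13.9 over the 6 total libraries, and the groups did not overlap. In other candidates it ranged from 15.1 to 49.4 in labeled and from 16.7 to 21.6 in total RNA, and the groups overlapped. The median log2 ratio of labeled to total RNA was 1.10 for introns and −0.12 for exons of fast-processed transcripts, and 0.63 and −0.25 in other candidates. The rule chose for low intron values in these total libraries and high exon values in these labeled ones. These differences from other candidates are therefore not independent of the choice. The same holds where labeled and total values of single transcripts are compared below. Exons of the 1493 transcripts made up 18.3% ± 1.35 (SD, n = 6) of all values in labeled libraries and 19.5% ± 0.308 (SD, n = 6) in total libraries. The 10 listed mESC markers, among them Pou5f1 and Nanog, had values in all 12 libraries and summed to between 18631 and 31015. Markers of fibroblasts or feeders summed to at most 55.8, with Col3a1, Postn, Lum and Dcn at 0, and those of primitive endoderm, mesoderm and trophectoderm to at most 23.1, 29.9 and 88.5, with Afp, Mesp1 and Cdx2 at 0. Neural markers, 3 of 5 of them measured, summed to between 190 and 445.

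**Figure D2:**
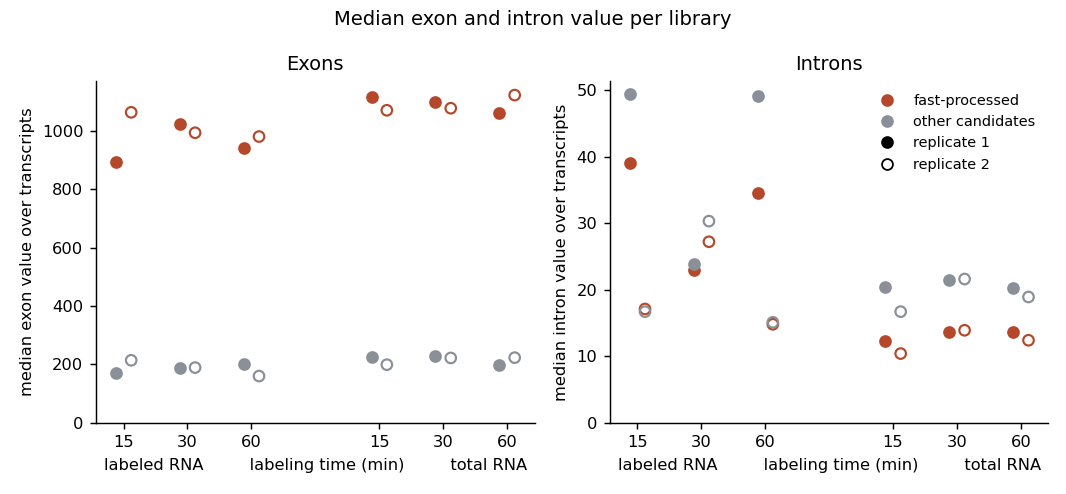
Median exon value (left) and intron value (right) over the fast-processed transcripts (red) and the other candidates (gray) in each of the 12 libraries, by labeling time in min, with replicate 1 filled and replicate 2 open. Intron medians of fast-processed transcripts lie between 10.4 and 13.9 in total RNA and reach 39.0 in labeled RNA of replicate 1 at 15 min.

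Intron length and number were then compared. Of the 1493 transcripts, 1278 (85.6%), from 666 genes, were found in M1, as were 11013 of the other candidates. Fast-processed transcripts had a median of 4 introns (quartiles 3 and 6), against 6 (3 and 12) in other candidates. Their introns summed to a median of 3372 bases (1532 and 8781), against 15401 bases (5800 and 36136). The first intron, often the longest of a gene, had a median of 891 bases against 2632, and the longest intron of each transcript 1834 against 5843. Their spliced length was also shorter, with a median of 844 bases against 1747. So fast-processed transcripts were shorter in every respect that was measured, and summed intron length differed by more than the number of introns did.

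The share of candidates that were fast-processed was 31.4% (206 of 656) among transcripts with under 1000 bases of introns and 26.3%, 20.3%, 10.7%, 6% and 3.12% in the classes from 1000, 2000, 5000, 10000 and 20000 bases. From 50000 bases it was 3.24% (64 of 1975), so that it did not go down further in the longest class. By number of introns, the share was 14.9% with 1 intron, 13.2% with 4 or 5, 7.76% with 9 to 12 and 3.01% (29 of 962) with 21 or more. Exon abundance moved with length: the median total exon value was 421 in the shortest class and 198 in the longest, whereas the median total intron value was 22.5 and 16.6. Within the top decile of total exon value, 65.2%, 65.5% and 68.4% of transcripts were fast-processed in the 3 classes under 5000 bases, 49.7% and 36.6% in the next 2, and 29.5% (52 of 176) from 20000 bases, but 50% (17 of 34) from 50000. In all 10 deciles of total exon value, the median summed intron length of fast-processed transcripts (2528 to 5272 bases) was below that of other candidates (8028 to 16872 bases). The median number of introns was lower in deciles 1, 2 and 4 to 9, equal at 4 in the top decile, and higher in decile 3 (6.5 against 6). In the top decile the upper quartile was 6 introns against 9, and the share that was fast-processed was 59.5% with 1 intron and 62.4% with 6 to 8, but 28.9% with 13 to 20 and 34.3% with 21 or more. The difference in length was therefore seen within every decile of exon abundance. Abundance was not alike within the top decile, where the median total exon value was 2678 in fast-processed transcripts and 1679 in the others. In that decile the difference in number was seen among transcripts with many introns and not in the median.

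**Figure D3:**
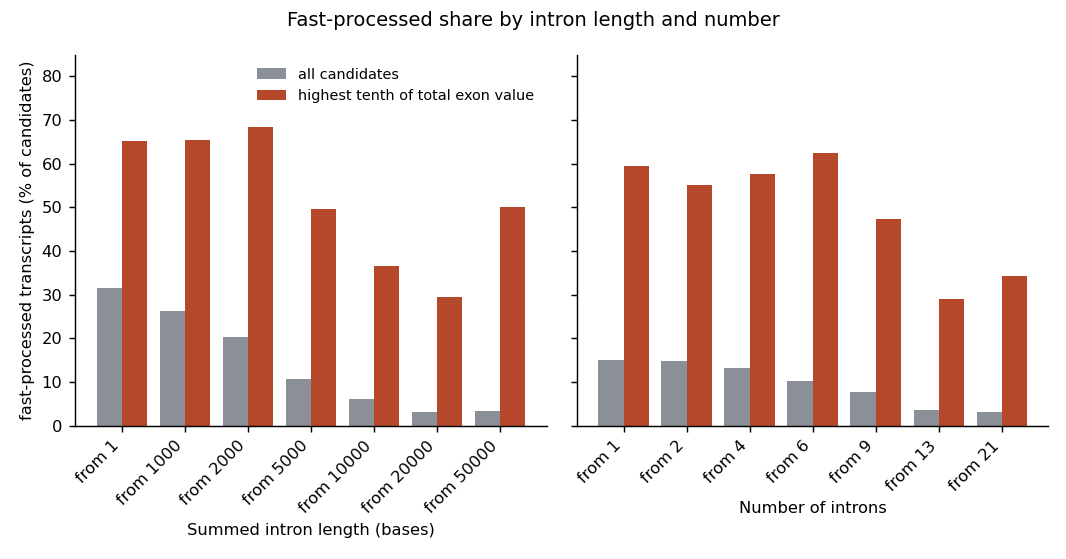
Share of candidates that are fast-processed (vertical, % from 0) by summed intron length in bases (left) and number of introns (right), for all candidates in M1 (gray) and those in the top decile of total exon value (red), with each class named by its lowest value. The gray bars go from 31.4% to 3.24% with length, and in the red bars the class from 50000 bases, with 34 transcripts, stands at 50%.

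Sequence shared with other genes also moved with the choice. The share of 31-base windows of the spliced transcript that occur in another gene had a median of 12.6% in fast-processed transcripts and 0% in other candidates. Reads that lie within shared sequence cannot be assigned to a gene by sequence alone, so exon values of these transcripts depend on how the authors' quantification divided them. Among the 8480 candidates with under 5% shared windows, 547 (6.45%) were fast-processed, with a median of 5122 bases and 5 introns, against 18063 bases and 7 introns. Among protein-coding candidates in the top decile of total exon value with under 5% shared windows, 101 of 234 (43.2%) were fast-processed, with medians of 11171 bases and 7 introns against 19768 bases and 10 introns. The difference in length was thus found without shared sequence, with longer introns in both groups. The part of shared sequence in the choice of single transcripts was not tested.

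By annotated type, 778 (52.1%) were protein-coding transcripts, 239 (16%) retained-intron transcripts, 192 (12.9%) processed transcripts without a reading frame and 50 (3.35%) targets of nonsense-mediated decay, against 54.9%, 10.1%, 11% and 5.33% of other candidates. A further 215 (14.4%) were not in M1. Retained-intron isoforms were thus among the transcripts with low intron values. In M1 the retained sequence of such an isoform lies in an exon and is not among its introns. How the deposited intron values of an isoform were defined is not given in the sources used here. Of the 666 genes, 257 had 2 or more fast-processed transcripts, and in 269 every candidate was one. Another 397 genes had both kinds, with 817 fast-processed transcripts and 1421 other candidates. Isoforms of a gene share exons and reads, so transcripts are not independent of each other. All 13 candidates of Eif5a, which encodes a translation factor that carries hypusine, were fast-processed, as were all 10 of Anp32a and all 8 of Dnaja1, a cochaperone of Hsp70. So were 9 of 10 of Lyar, 8 of 11 of Rpl10, 8 of 9 of Rps19 and 7 of 14 of Tpr. With values summed by gene, an alternative chosen after seeing the data, 467 of 6585 genes (7.09%) reached 40, and 344 of these were among the 666, which is 51.7% of the 666 and 73.7% of the 467. A gene with a fast-processed transcript was thus often not fast-processed as a whole.

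The genes were then described by lists of known function. In M1, 666 of 4422 candidate genes (15.1%) and 1278 of 12291 candidate transcripts (10.4%) were fast-processed, and the lists are read beside these shares with no test. Transcripts of ribosomal protein genes stood highest, with 78 of 81 genes (96.3%) and 241 of 313 transcripts (77.0%). Chaperones had 60 of 118 transcripts (50.8%), glycolytic enzymes 23 of 52 (44.2%), translation factors 77 of 180 (42.8%) and replication-independent histones 8 of 20 (40%). Nucleolar and ribosome assembly factors had 26 of 70 (37.1%), the actin and tubulin cytoskeleton 28 of 88 (31.8%), respiratory chain and ATP synthase subunits 53 of 180 (29.4%) and the proteasome 26 of 105 (24.8%). These are genes that dividing cells use at high levels for protein synthesis, folding and energy. SR and hnRNP proteins, which regulate splicing, had 23 of 189 (12.2%), immediate early and growth response genes 3 of 20 (15.0%), pluripotency genes 7 of 73 (9.59%) and the spliceosome 7 of 115 (6.09%). Counted by gene, these were 10 of 31 (32.3%), 3 of 9 (33.3%), 5 of 26 (19.2%) and 5 of 43 (11.6%), against 15.1% of all candidate genes. A gene counted if any of its candidate transcripts was fast-processed, so genes with more candidates could count more easily. SR and hnRNP proteins had 189 candidates in 31 genes, against 12291 in 4422 for all. The part of this in the shares by gene was not tested. None of 35 candidate transcripts of the 3 noncoding snoRNA host genes was fast-processed. Their median ratio was 4.90 and their median total intron value 540. Genes of this kind carry snoRNAs in their introns. The lists also differed in exon abundance, with which the fast-processed share rose. The median total exon value was 2551 for ribosomal proteins, 1523 for chaperones and 1142 for translation factors, against 236 for all candidates. It was 996 for the snoRNA hosts, 666 for SR and hnRNP proteins and 307 for the spliceosome. The part of exon abundance in the shares was not tested. The lists hold 220 of the 666 genes, and 446 genes are in none of them.

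**Figure D4:**
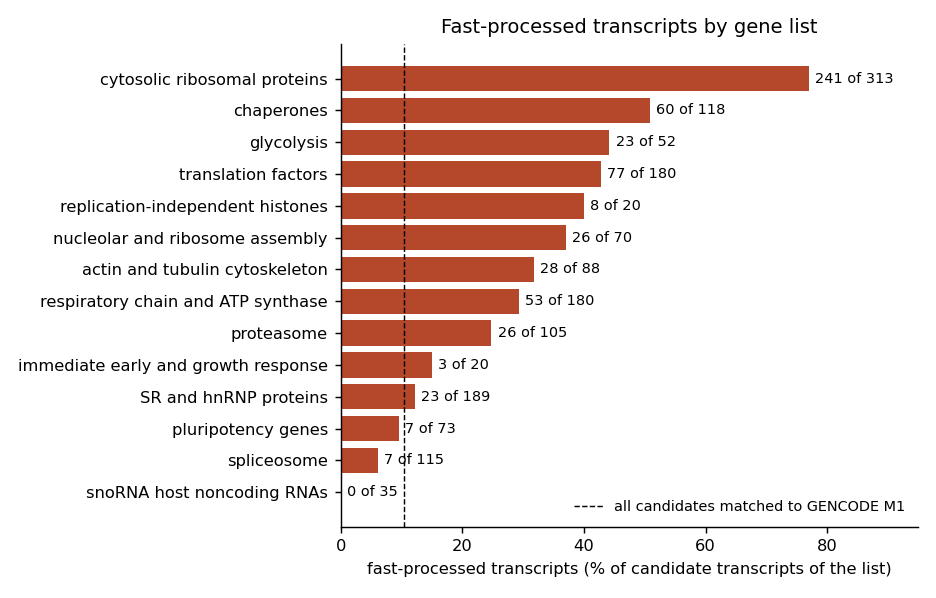
Share of candidate transcripts in each gene list that are fast-processed (horizontal, %), with counts beside the bars and a dashed line at 10.4%, the share of all candidates in M1. Cytosolic ribosomal proteins stand at 77.0% and the spliceosome at 6.09%.

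Ribosomal protein transcripts had short introns and shared much sequence with other genes. The 313 candidate transcripts had a median summed intron length of 1558 bases and a median ratio of 82.6, and a median of 55.2% of their windows occurred in another gene. Ribosomal protein genes are known for their many processed pseudogenes. Rps27 (ENSMUST00000170122), a small subunit protein, had exon values from 5785 to 10887 (median 7293) in labeled RNA and from 4842 to 6901 (median 5563) in total RNA. Its intron values were 15.0 to 35.1 (median 24.2) in labeled and 3.83 to 11.6 (median 7.54) in total RNA, and its ratio was 1006. Introns of Rps27 were thus higher in every labeled library than in any total one, whereas its exon values overlapped. Of its windows, 99.0% occur in another gene. Rps6 (ENSMUST00000123229), whose protein is phosphorylated by S6 kinase, had a ratio of 1440, with 6927 to 9869 (median 8061) in labeled and 6484 to 7597 (median 6787) in total RNA exons and 2.38 to 9.51 (median 5.29) in total RNA introns. This Rps6 entry is a processed transcript, and 78.5% of its windows are shared.

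Npm1 (ENSMUST00000101375), which encodes the nucleolar chaperone nucleophosmin, had the highest exon value of all fast-processed transcripts. Its exons were 75635 to 157346 (median 96901) in labeled and 83506 to 126889 (median 97825) in total RNA, and its 9 introns, of 6783 bases in all, were 131 to 490 (median 253) and 125 to 190 (median 169). Both overlapped between labeled and total RNA, and 64.7% of its windows are shared. Ncl, which encodes nucleolin, shared 4.25% and had 4815 to 5694 (median 5124) in labeled and 4384 to 5665 (median 4827) in total RNA exons, with 21.2 to 31.3 (median 26.4) in total RNA introns and a ratio of 197. A retained-intron isoform of Nop56, a core protein of box C/D snoRNPs, had a ratio of 470, and Fbl, the methyltransferase of these particles, had 95.6.

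Chaperones were led by Hspa8 (ENSMUST00000140984), the constitutive Hsp70, with a ratio of 1470. This entry is a retained-intron isoform with 1152 exon bases and 76.6% shared windows. Its labeled exon values lay between 3829 and 11089 (median 7975) and its total exon values between 8551 and 12921 (median 11241), and its introns between 11.7 and 22.6 (median 18.1) in labeled and 1.54 and 7.45 (median 5.32) in total RNA. Hsp90aa1 (ENSMUST00000155242), the stress-inducible cytosolic Hsp90, had a ratio of 1351, with labeled exons of 10329 to 15312 (median 13975) and total introns of 5.95 to 15.0 (median 9.45). Introns of both were higher in every labeled library than in any total one. Of the windows of this Hsp90aa1 transcript, 72.7% are shared. Cct6a (ENSMUST00000031402), a subunit of the chaperonin that folds actin and tubulin, is of another kind, since it has 14 introns of 26783 bases in all and shares 0.0637% of its windows. Its exons were 671 to 1564 (median 1352) in labeled and 1487 to 2188 (median 1920) in total RNA, its total RNA introns were 2.45 to 4.29 (median 3.58), and its ratio was 355. A high ratio was thus reached with long introns and little shared sequence.

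Gapdh (ENSMUST00000073605), the glycolytic dehydrogenase, had labeled exon values of 14342 to 19955 (median 17650), total exon values of 20112 to 23740 (median 22555) and a ratio of 438. Its introns were 80.6 to 195 (median 173) in labeled and 24.8 to 45.7 (median 42.9) in total RNA. Exons were lower and introns higher in labeled RNA, with no overlap in either. Eef1a1, the elongation factor that brings aminoacyl-tRNA to the ribosome, had a ratio of 502, with exons of 7758 to 11763 (median 9880) in labeled and 11100 to 13894 (median 13019) in total RNA, and introns of 36.5 to 89.1 (median 59.5) and 12.5 to 24.6 (median 20.6). For Atp5b, the catalytic subunit of ATP synthase, a processed transcript (ENSMUST00000126751) had a ratio of 1430 with 2 introns of 1244 bases in all and 8.26% shared windows. Its exons were 21412 to 24035 (median 23805) in labeled and 26142 to 27927 (median 27655) in total RNA, and did not overlap. Ndufb9, of complex I, had no shared window, 5029 bases of introns and a ratio of 149, with labeled exons of 600 to 1227 (median 705) and total introns of 1.39 to 8.08 (median 5.83). Psmd12, of the proteasome lid, had none either, 16846 bases of introns and a ratio of 128, with labeled exons of 1640 to 2260 (median 1864) and total introns of 13.1 to 17.1 (median 14.6).

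Of the other leading genes, Tuba1a, an alpha tubulin, had a ratio of 745 and Cfl1, which encodes the actin-severing cofilin, 394. Ptma (prothymosin alpha) had 699, with 6415 to 9715 (median 8987) in labeled and 11051 to 13021 (median 12310) in total RNA exons, which did not overlap. The highest ratio, 2136, belonged to the predicted gene Gm5148, with 1 intron of 9067 bases. Its exons were 5705 to 8887 (median 6139) in labeled and 4568 to 5225 (median 4828) in total RNA, and its intron 3.28 to 6.48 (median 4.25) and 2.00 to 4.55 (median 2.70). Exons of Gm5148 were higher in every labeled library than in any total one, and 37.5% of its windows are shared with other genes. The noncoding genes with the highest ratios were Gm13423 (488), Gm19840 (463), Gm7808 (401), Gm15794 (379) and Gm13826 (348), the first 4 of them annotated as processed pseudogenes or retrotransposed copies. M1 gives no intron for Gm7808 and Gm15794, although the table has intron values for them. linc1281, a lincRNA of the authors' set, had a ratio of 47.6, with labeled exons of 115 to 211 (median 179) and total introns of 1.65 to 5.66 (median 3.52), and the assembled transcript TCONS_00036182 had 134.

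Few fast-processed transcripts had very many or very long introns. Tpr (ENSMUST00000119161), which encodes a filament of the nuclear pore basket, had the most, 50 introns of 49206 bases in all, and a ratio of 74.0. Its exons were 1161 to 1487 (median 1422) in labeled and 1093 to 1660 (median 1436) in total RNA, and its introns 13.6 to 52.2 (median 26.6) and 12.3 to 22.9 (median 19.3). Exon and intron values of Tpr both overlapped between labeled and total RNA. Prpf8 (ENSMUST00000102510), the core protein of the U5 snRNP, had 42 introns of 15381 bases in all and a ratio of 47.2. Its exons were lower in labeled (603 to 846, median 659) than in total RNA (1017 to 1302, median 1144), with no overlap. Top2a, the DNA topoisomerase of dividing cells, had 35 introns and a ratio of 59.6, and its introns were higher in labeled (68.1 to 128, median 94.6) than in total RNA (46.7 to 60.5, median 53.5), again with no overlap. A transcript of Brwd3 annotated as a target of nonsense-mediated decay had 38 introns and Spnb2, a beta spectrin, 35, with ratios of 75.7 and 40.7.

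Mid1 (ENSMUST00000112107), an X-linked ubiquitin ligase that binds microtubules, had the longest introns, 302403 bases in all, and a ratio of 128. Its exons were 671 to 1694 (median 1203) in labeled and 606 to 810 (median 697) in total RNA, and its introns 4.88 to 21.6 (median 11.1) and 7.69 to 10.6 (median 9.21). Both overlapped. Cald1, which encodes the actin-binding caldesmon, had 172822 bases and a ratio of 75.6, with exons of 119 to 152 (median 137) in labeled RNA and introns of 1.58 to 1.95 (median 1.83) in total RNA. The lowest value in the table is 1.01 and lower ones are missing, so intron values such as those of Cald1 lie close to the lowest that were kept. Rnf220 (222561 bases), Spnb2 (160314) and Dlc1 (159063) had ratios of 51.8, 40.7 and 43.4. At the other end, the smallest sums of intron length per transcript were those of short isoforms of Gapdh (110 bases), Rpl10a (132), Rpl12 (137) and Hsp90aa1 (146), apart from a gap of 4 bases in the pseudogene Gm10186, which is too short to be an intron.

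**Figure D5:**
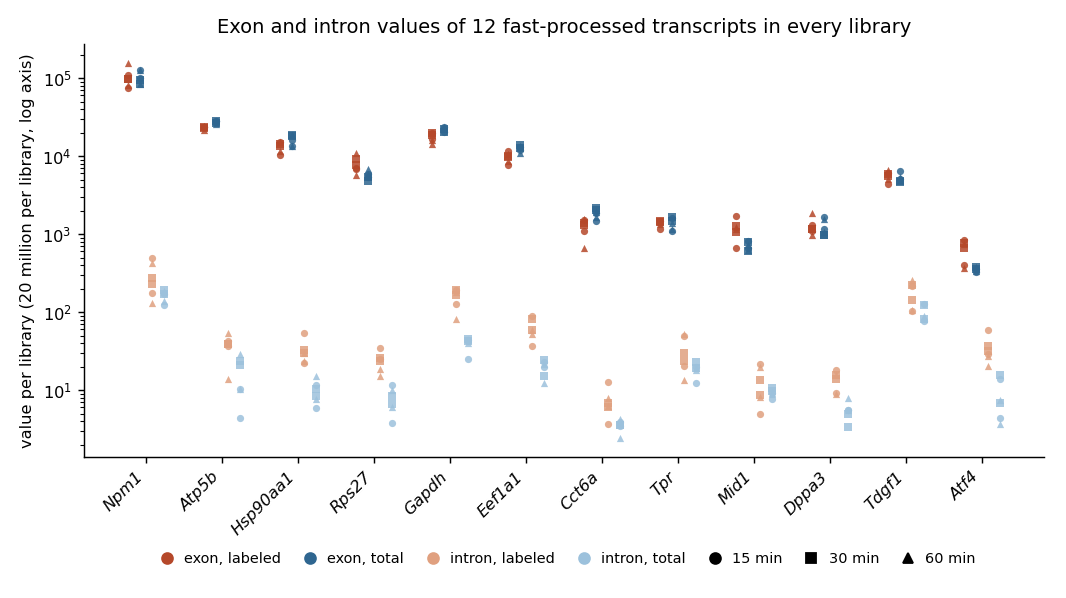
Exon values (dark) and intron values (light) of 12 fast-processed transcripts in the 6 labeled (red) and 6 total (blue) RNA libraries, on a log axis, with the labeling time given by the symbol. In Gapdh the labeled introns (80.6 to 195) lie above the total ones (24.8 to 45.7), and in Mid1 and Tpr they overlap.

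Pluripotency genes contributed 7 transcripts of 5 genes. Dppa3 (Stella), which protects maternal methylation, had exons of 972 to 1892 (median 1162) in labeled and 975 to 1653 (median 1112) in total RNA, and introns of 8.96 to 17.9 (median 14.6) and 3.41 to 7.93 (median 5.57), with a ratio of 231. Dppa5a had a ratio of 159, labeled exons of 6629 to 13887 (median 7661) and total exons of 5799 to 7910 (median 6754), and 76.4% of its windows are shared. Tdgf1 (Cripto), the coreceptor of Nodal, had a ratio of 58.0, with labeled exons of 4394 to 6577 (median 5697) and total introns of 78.1 to 127 (median 85.2). Introns of Dppa3 and Dppa5a were higher in all labeled libraries than in any total one, and those of Tdgf1 overlapped. For Pou5f1 (Oct4), the fast-processed transcript was a short isoform with 3 introns of 895 bases in all, exons of 241 to 277 (median 265) in labeled and 263 to 398 (median 362) in total RNA, and a ratio of 49.9.

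The list of immediate early and growth response genes, whose mRNAs are known to be short-lived, contributed 3 transcripts of 3 genes. Atf4 (ENSMUST00000109605), the transcription factor of the integrated stress response, had exons of 366 to 845 (median 709) in labeled and 331 to 382 (median 356) in total RNA, a log2 ratio of the means of 0.83. Its introns were 20.4 to 59.5 (median 30.4) and 3.69 to 15.5 (median 7.16), and its ratio was 73.0. For Dusp1, a phosphatase of MAP kinases, the transcript was a retained-intron isoform. It had exons of 157 to 466 (median 348) in labeled and 82.3 to 194 (median 162) in total RNA, a log2 ratio of 1.05, and a ratio of 74.5. Exons of both genes were higher on average in labeled RNA but overlapped with total RNA, and no window of either is shared with another gene. For Mdm2, the ubiquitin ligase of p53, a retained-intron isoform had a ratio of 67.4.

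The rule averages over labeling times, so a change with labeling time could be tested. limma was run on log2(value + 1) of all transcripts with a mean of at least 20, with Benjamini-Hochberg adjustment. Of the 1493 fast-processed transcripts, 0 changed in exon abundance between 60 and 15 min in labeled RNA at an adjusted p under 0.05. Of all 45537 transcripts tested, 0% did. An unadjusted limma p under 0.05 was found for 10 (0.670%), against 1.08% of all tested. The number with such an unadjusted p depended on the library left out. Without replicate 1 of labeled RNA at 60 min, the median log2 change was 0.02, against −0.32 for all tested. Without replicate 1 of labeled RNA at 15 min it was −0.17, against −0.2. Likewise, 0 changed in total RNA (0% of 45537), and 4 (0.268%) had an unadjusted p under 0.05, against 0.650% of all tested. For 0 did the change differ between labeled and total RNA (0% of 45537), with 14 (0.938%) against 0.883%. Of the 746 with intron values that passed the minimum, 0 changed in intron abundance in labeled RNA (0% of 18384), with 7 (0.938%) against 0.174%. Their median log2 change was 0.00 for labeled exons, 0.01 for total exons and −0.27 for labeled introns, against −0.11, −0.02 and −0.07 for all features tested. The value for labeled introns turned with the library left out: it was 0.29 without replicate 1 at 15 min and 0.24 without replicate 2 at 60 min, but −0.81 without replicate 1 at 60 min and −0.84 without replicate 2 at 15 min, where the medians of all introns were 0.59, 0.60, −0.81 and −0.75. The number of the 746 with an unadjusted p under 0.05 also depended on the library left out. No direction is therefore given for the introns. The median SE of a fast-processed transcript was 0.27 for labeled exons, 0.27 for total exons and 0.57 for labeled introns. All 12 libraries share 1 estimate of the spread per transcript, so the SEs do not give the spread of labeled and total RNA apart. Fitted to the 6 total libraries alone, total exons gave 0 calls among fast-processed transcripts and 18 among all 45537. In simulated data, changes were added to labeled exon values at 60 min of transcripts drawn from all those tested, and most were missed at the sizes tried. No change in total RNA or in introns was simulated. With 2 libraries a group, the counts of 0 do not show that abundance stayed the same.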

How the data were processed

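Per the labels, the authors aligned reads with STAR 2.5.0 to mm10 and quantified exons and introns of transcripts with RSEM. The deposited values are a signal, a length-normalized abundance rather than counts, and sum to between 19988830 and 19992902 per library. Values of 1 or less are missing, and this scaling and minimum are not given in the sources used here. The paper gives read numbers only as averages over libraries, so the depth of each library is unknown and no counting error was computed. Exon and intron entries of lincRNAs were read as exons and introns.

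Transcripts were matched by identifier to GENCODE M1, and introns, coordinates and sequences were read from its own build, NCBIM37 (mm9), which differs from the build of the values. All 817 fast-processed transcripts in the M1 file of coding transcripts, which holds some targets of nonsense-mediated decay, had spliced sequences identical to it. Types and intron structures are those of M1. A 31-base window was shared if it occurred, on either strand, in the spliced sequence of another gene, genes that overlap it included.

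Labeling times were compared by limma (version 3.58.1, run in R 4.3.3), fitted to log2(value + 1) of all 12 libraries as 6 groups of 2 and over transcripts with a mean of at least 20, with a mean-variance trend, missing values as 0 and an adjusted p threshold of 0.05. Fold changes on this scale are understated at low values. The fit was tested on simulated data, where it missed most of the changes added. p-values measure the spread between these cultures. Python 3.11.15 was used for all else, with pandas 2.3.3 and numpy 2.4.6.

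The transcripts, gene lists and tests were chosen with earlier results of these data known. Genes were named from those with the highest ratio (10), total exon value, number of introns, longest and shortest introns, noncoding ratio and number of fast-processed transcripts (5 each), those at the threshold (3 on either side), up to 4 by ratio in each list, and the lincRNA and assembled members. Transcripts given by library were picked from these after their values were seen, as were the introns printed. Not all of them are described, and 1 is not reported here. Alternatives changed the ratio, pseudocount, low-value filter, labeling time, unit of count, shared sequence and replicates. In exon values, deviations of same-numbered replicates from their group means correlated between −0.3 and 0.344 across pairs of groups, so the numbers were not used as a block. Intron values were not examined in this way. In labeled RNA the intron median of fast-processed transcripts was higher in replicate 1 at 15 and 60 min, and lower at 30 min. For the ratio, labeled and total libraries of the same time and number, which the labels give as the same biological replicate, were read together.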

Additional observations from a re-analysis of the deposited data

Results flagged for a closer look

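Among 126 groups of 6 libraries, the exon and intron values of 30 transcripts in labeled and total RNA and 6 summaries by library, 10 had a library that stood apart from the other 5 by Dixon's test, where 6.30 would be expected by chance. Each group holds all 3 labeling times. In labeled RNA of replicate 2 at 60 min, exon values were the highest of the group for Gm5148 (8887), Dppa5a (13887) and Ndufb9 (1227) and the lowest for Atp5b (21412). In labeled RNA at 15 min, the intron value of Hsp90aa1 was 53.9 in replicate 1 and the exon value of Prpf8 was 846 in replicate 2, both the highest of their groups. Dusp1 introns were highest at 56.7 in labeled RNA of replicate 1 at 60 min and at 11.2 in total RNA of replicate 1 at 15 min. In total RNA introns, Gapdh was lowest at 24.8 in replicate 2 at 15 min, and TCONS_00036182 was highest at 4.44 in replicate 2 at 30 min. The part of labeling time or library in these values was not tested.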

How the results depend on the processing

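The number of fast-processed transcripts was 1493, and 855 with a ratio of at least 60 and 547 with under 5% shared windows. The median number of introns was 4, and 5 both with total exons in the ratio and with under 5% shared windows. The median summed intron length was 3372 bases, and 4340 with a ratio of at least 30, 2974 with at least 60, 3051 at 30 min alone, 3179 at 60 min alone, 4538 with total exons in the ratio, 3806 with 1 transcript per gene, 5122 with under 5% shared windows and 2936 in the top decile of total exon value, all under the 15401 of other candidates. The settings of shared windows and top decile were chosen after seeing the data. With either replicate left out, these values ranged from 1433 to 1726 transcripts, stayed at 4 introns and ranged from 3201 to 3361 bases. For changes between 60 and 15 min, 0 fast-processed transcripts were called in all 9, 9, 12 and 9 alternatives of the 4 limma fits, leaving out a library included, and 0 with the replicate block. Over all features, the alternatives called 0 to 7, 0 to 18, 0 to 13 and 0 to 9. The cause of these changes was not tested. The depth of each library is unknown, intron values near 1 lie at the lowest value kept, and 2 replicates a group limit every test of time.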

Other observations

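The lists of splicing proteins, histones and proteasome subunits also held fast-processed transcripts. The spliceosome's were led by Lsm7, a subunit of the Sm-like ring (ratio 124, 94.5% shared windows), Magoh, of the exon junction complex (102), a retained-intron isoform of Prpf8 (91.7) and Sf3a3, of the U2 snRNP (57.2). Among SR and hnRNP proteins, Hnrnpa3 had a ratio of 227 with 96.8% shared windows, Srsf5 210, Ptbp1 97.8 and Srsf3 69.9 with 61.9% shared windows. The histone variants H2afz and H3f3b had 335 and 240, and H3f3a had 43.2. After Psmd12, the proteasome transcripts with the highest ratios were those of Psma7 (88.9), Psmd1 (83.9) and Psmd6 (82.2). The entries of Magoh, Sf3a3, Srsf5, Ptbp1, H2afz and Psmd1 are processed transcripts, and those of Srsf3 and Psmd6 are retained-intron isoforms. Of 215 fast-processed transcripts that were not in M1, ENSMUST00000201414 had the highest ratio, 1026, with a mean exon value of 4171 in labeled RNA and a mean intron value of 4.07 in total RNA.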
